A study of Mus musculus with 8 samples.

Results

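GATA factors are zinc finger proteins that bind the short DNA motif after which they are named, and the mouse has 6 of them with similar DNA-binding domains. Gata4, Gata5 and Gata6 act together in heart, endoderm and coelomic mesoderm, Gata1 and Gata2 act in blood, and Gata2 and Gata3 also act in neurons, ectoderm and the urogenital tract. In the early kidney Gata3 is the family member that specifies the nephric (Wolffian) duct, the epithelial tube from which the ureteric bud and the collecting ducts arise. Described here are Gata2, Gata4, Gata5 and Gata6. They were chosen as every non-control array probe that the scanner files name after 1 of these 4 genes, which gave 4 probes, 1 per gene, among 55663 probes. The label given to them, factors outside the duct, was not tested. Of the 6 arrays of Hoxb7-GFP cells, the Gata2 probe was well above background on 6, the Gata4 probe on 5 and the Gata6 probe on 4. On each of these arrays 61.5% to 69.2% of all probes were. Detection in a sort does not show which of its cells held the RNA. Whether Gata5 was detected could not be judged, as its probe sequence shows.

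Cells were sorted from mouse embryos (ICR) by a fluorescent reporter, and the RNA of each sort was put on 1 array. Cells that were positive for Hoxb7-GFP, a transgene that labels duct precursors, formed 4 groups: E8.75 embryos (1 array), the E9.5 duct (a rostral and a caudal array), the E10.5 duct (a rostral and a caudal array) and the E11.5 ureteric bud (1 array). From E9.5 on, the labels add that the Hoxb7-GFP cells were negative for Flk1 (Kdr), an endothelial receptor. The fifth group was Wt1-GFP-positive intermediate mesoderm of E9.5, with a rostral and a caudal array, for which no selection against Flk1 is stated. No label ties an array to its own animal or pool, and no sample was repeated. Outside the interaction of position and reporter, each p-value therefore rests on how far the 3 divided groups varied in their rostral and caudal difference. These groups differ in stage or reporter, so that spread may hold such differences as well as technical ones. It is not the spread of repeated samples. In the interaction, p-values rest on the E9.5 and E10.5 duct pairs alone, which differ in stage. A level is the log2 of a probe's signal relative to the 75th percentile of its array, so that 0 is that percentile. Levels compare arrays for 1 probe, and not 1 probe with another. In a sort, fewer cells of a type and less RNA per cell cannot be told apart. An array had 60.6% to 69.2% of its probes well above background, and no probe was saturated (0 over all arrays). Duct markers were well above background for 8 or 9 of 9 genes on every Hoxb7-GFP array, the exception at E8.75 being the cadherin gene Cdh1. On the rostral and caudal Wt1-GFP arrays 7 and 6 of them were. The list holds Hoxb7, after which the duct reporter is named, and which was well above background on all 8 arrays.

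The probe sequences decide what each signal can be read as, and they are shown first for that reason. The probes have 60 bases each. By the mm9 coordinates in the files, the Gata2 probe lies at chr6:88156362-88156421 on the plus strand, the Gata4 probe at chr14:63817858-63817917 and the Gata5 probe at chr2:180059867-180059926, both on the minus strand. The files place each probe in the transcript of its gene and do not say whether the bases are coding or untranslated. A run of 16 or more bases was searched for on both strands among all other probes. None matched the Gata2 or the Gata4 probe (0 each), 1 matched the Gata6 probe, and 11 matched the Gata5 probe, all 11 under other names. The run that recurred most often was CTGGCTGTCCTGGAAC, found on the same strand in 2 other probes and on the opposite strand in 5. Below, 30 bases of the Gata5 probe are set beside those of 3 named genes that share the longest run with it (19 bases), with the recurring run in capitals. Glrx2 and Kctd14 are written as the reverse complement of the deposited probe. The first 30 bases of the Gata2 and Gata4 probes, which hold no such run, follow for comparison.
Gata5: tgtagctCTGGCTGTCCTGGAACtcattat
Timmdc1: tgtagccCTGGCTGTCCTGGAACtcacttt
Glrx2: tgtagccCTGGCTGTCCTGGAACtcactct
Kctd14: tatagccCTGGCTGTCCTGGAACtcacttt
Gata2: aactgcataagcttaacccgctgatgagtg
Gata4: tagcttcgaaccaagattctgttgtaatca
These letters belong to the B1 family of short interspersed repeats, which is spread in very many copies over the mouse genome and sits in many transcripts. Among RefSeq promoters of 300 bases (build GRCm38.p6), 35 of 32851 (0.11%) hold the 16-base run on either strand.

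The Gata5 probe was bright and flat. Its level was 6.84 at E8.75, 7.12 and 7.13 in the rostral and caudal E9.5 duct, 7.20 and 7.06 in the E10.5 duct, 7.02 in the E11.5 bud, and 7.13 and 7.06 in rostral and caudal Wt1-GFP cells. No group stood apart, and every step in the order of the 8 levels was smaller than the moderated standard deviation of the fit (0.22). That deviation is for 1 array, and a gap between 2 arrays varies more. Here and below, a step larger than it is therefore not read as a difference. The span from lowest to highest array was 0.36 on the log2 scale, and only 1.2% of the 45585 probes tested had a span as small or smaller, against a median span of 1.64. The 11 other probes that share a run with it had a median span of 0.30 (0.22 to 1.43), the widest being that of Fkbp5. Their mean levels ran from -0.23 to 9.56 with a median of 8.30, and all 11 were well above background on 8 of 8 arrays. Elk1, Med16 and Dnajc5, unrelated genes with such a probe, had spans of 0.36, 0.30 and 0.23. Whether any of the Gata5 signal came from Gata5 RNA was not tested, so its values are given as those of the probe and are not read as the level of the gene.

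**Figure D1:**
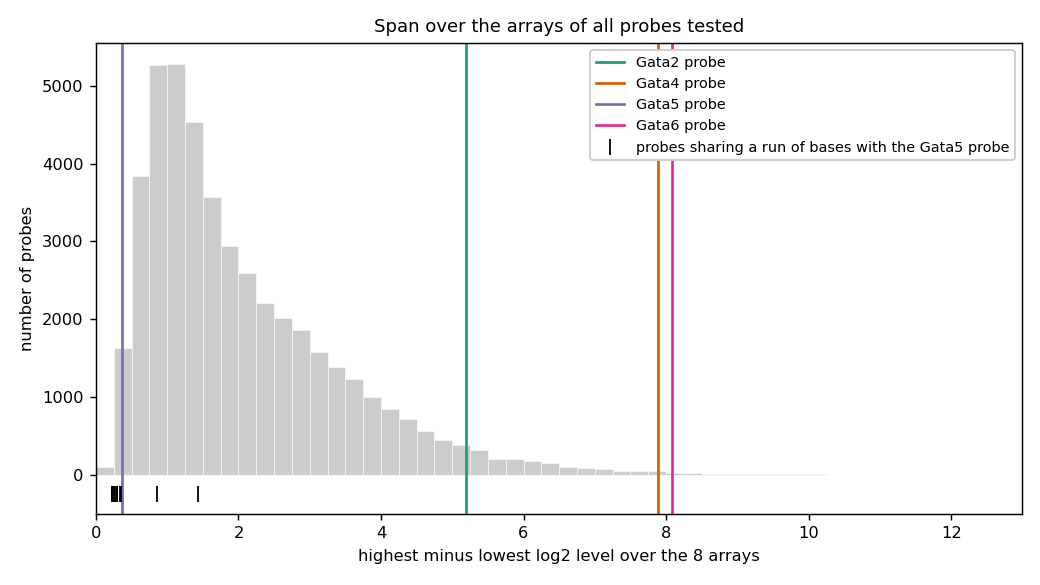
Histogram of the span (highest minus lowest log2 level over the 8 arrays) of the 45585 probes tested, with a vertical line for each of the 4 Gata probes and black ticks under the axis for the 11 probes that share a run of bases with the Gata5 probe. The Gata5 line lies at 0.36, among most of the ticks, while Gata2, Gata4 and Gata6 lie at 5.19, 7.89 and 8.08, in the right tail.

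The other 3 probes varied widely. Gata6 spanned 8.08, Gata4 7.89 and Gata2 5.19 on the log2 scale, and 99.7%, 99.6% and 96.3% of tested probes had spans no larger. Gata4 and Gata6 followed each other in part over the 8 arrays (Pearson r = 0.74), whereas Gata2 followed neither (r = -0.20 with Gata4 and -0.58 with Gata6). These correlations are descriptions over 8 arrays that share 1 slide and include stages and sorts of different kinds.

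Gata4, which with its cofactors drives heart muscle genes and the formation of the gonadal ridge, was bright on 2 arrays, both rostral and both of E9.5. In duct cells its level was -3.09 at E8.75, 1.23 and -3.67 in the rostral and caudal E9.5 duct, -2.35 and -4.79 in the rostral and caudal E10.5 duct and -4.09 in the E11.5 bud. In Wt1-GFP cells it was 3.1 rostrally and -3.08 caudally. The caudal E10.5 array was the only one on which it was not well above background. After the rostral Wt1-GFP array the order fell by 1.87 to the rostral E9.5 duct and by a further 3.58 to the rostral E10.5 duct. The remaining steps were all below the moderated standard deviation of 1.01, so no neighbours among the lowest 6 arrays differed beyond it.

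**Figure D2:**
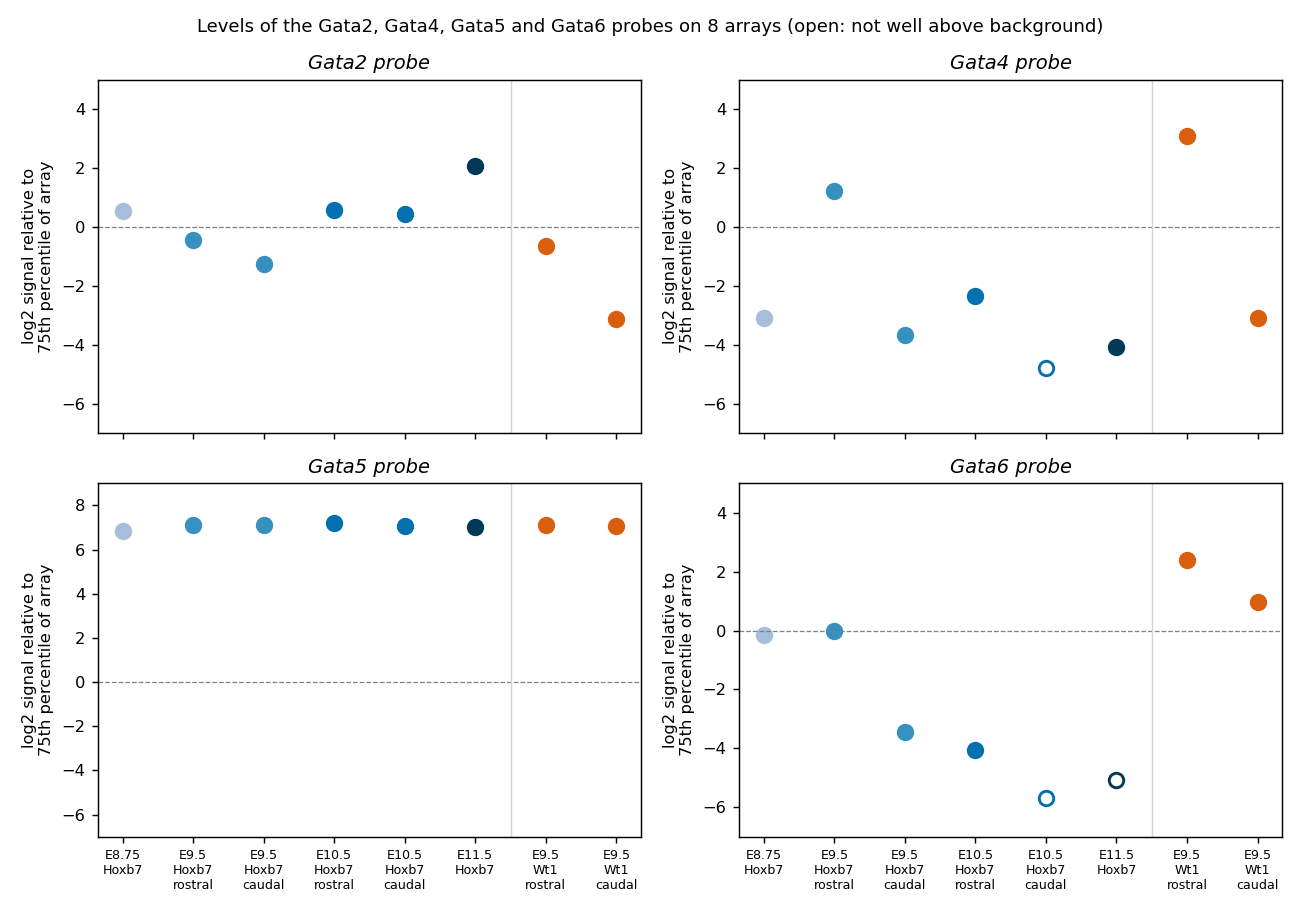
Log2 level of each Gata probe on the 8 arrays (vertical axis, 0 is the 75th percentile of the array), with Hoxb7-GFP arrays by stage in blue and Wt1-GFP arrays in orange, and open circles for probes not well above background. Gata4 is high on the rostral E9.5 duct (1.23) and rostral Wt1-GFP (3.1) arrays, Gata6 on both Wt1-GFP arrays (2.40 and 0.96), Gata2 on the E11.5 bud array (2.07), and Gata5 is flat.

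Gata6, a factor of heart, endoderm and coelomic mesoderm that overlaps in function with Gata4, was brightest in the intermediate mesoderm. Its level in Wt1-GFP cells was 2.40 rostrally and 0.96 caudally. Duct cells had -0.15 at E8.75, -0.02 and -3.46 in the rostral and caudal E9.5 duct and -4.05 and -5.68 in the rostral and caudal E10.5 duct, and -5.09 in the E11.5 bud. The caudal E10.5 and the E11.5 signals did not clear background. The probe lies on chromosome 18. Both Wt1-GFP arrays lay above all 6 duct arrays, as for 8.18% of all probes. They were 1.44 apart, and the lower of them was 0.98 above the highest duct array. E8.75 and the rostral E9.5 duct differed by 0.13, less than the moderated standard deviation of 0.61, and the next array, the caudal E9.5 duct, lay 3.31 below E8.75. The rostral E10.5 array lay 1.04 above the bud, and the remaining steps were smaller than that deviation.

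Gata2, a factor of blood stem cells and endothelium that also acts in the urogenital tract, was measured on every array and was highest in the bud. Its level was 0.55 at E8.75, -0.46 and -1.26 in the rostral and caudal E9.5 duct, 0.58 and 0.44 in the rostral and caudal E10.5 duct and 2.07 in the E11.5 bud. Wt1-GFP cells had -0.66 rostrally and -3.12 caudally. The bud lay 1.49 above the next array and the caudal Wt1-GFP array 1.86 below the one before it. The caudal E10.5 array lay 0.90 above the rostral E9.5 one. These steps exceeded the moderated standard deviation of 1 array (0.66), which was 0.85 before moderation. A gap between 2 arrays varies more than that, so the 0.90 step in particular is not read as a difference. The rostral E10.5, E8.75 and caudal E10.5 arrays lay within 0.14 of each other.

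At E9.5 the design sets duct precursors against Wt1-GFP mesoderm of the same day. Gata6 had the largest difference of the 4 probes, at -3.42 (SE 0.61, adjusted p = 0.28 in limma), lower in the duct. With a prior variance that followed intensity, its adjusted p was 0.052. Gata4 had a difference of -1.23 (SE 1.01, adjusted p = 0.64), which was 0.02 without the rostral Wt1-GFP array and 1.87 with the slide row as a block, so its direction was not settled. Gata2 had a difference of 1.03 (SE 0.66, adjusted p = 0.56), which was 0.03 without the caudal Wt1-GFP array, 2.02 without the rostral one and 2.52 under a slide row block. The Gata5 probe had 0.03 (SE 0.22, adjusted p = 0.97). None of the 4 probes passed adjusted p 0.05, nor did any of 45585 probes (0%, lowest adjusted p = 0.21). At an unadjusted p under 0.05 there were 5340 probes (11.7%), Gata6 among them, and the fit with the intensity trend called 788 (1.73%), with 0 of the 4. Both E9.5 duct arrays lay in the first slide row and both Wt1-GFP arrays in the second, so no value within a row can be had. The row term of the block came from the E10.5 pair alone, the only pair lying in both rows. It cannot tell a slide row effect from a rostral and caudal difference peculiar to that pair. For Gata4 it also uses a caudal E10.5 signal not well above background. Nothing is therefore concluded from 1.87 or 2.52.

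Markers of mesoderm outside the duct also had lower mean levels in the E9.5 duct than in Wt1-GFP cells, in the direction of the Gata6 difference. The lateral plate list had a mean level of -2.25 and -3.37 on the rostral and caudal E9.5 duct arrays, compared with -0.23 and -0.19 for Wt1-GFP, with 6 and 5 of 8 genes well above background, against 8 and 7. Coelomic epithelium markers had means of -4.32 and -4.70 on the E9.5 duct arrays, compared with -0.51 and -2.12 for Wt1-GFP. Of these 8 genes, the mesothelial genes Upk3b, Msln, Bnc1, Lrrn4 and Upk1b were not well above background on either E9.5 duct array, whereas on the Wt1-GFP arrays Msln and Upk1b were not, nor was Lhx9 caudally. The coelomic list holds Wt1, the gene of the reporter used for the sort, at 4.08 and 4.01 on the rostral and caudal Wt1-GFP arrays. Part of the difference in its mean was therefore set by the sort. The part of lateral plate or coelomic cells in the Gata6 value was not tested.

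**Figure D3:**
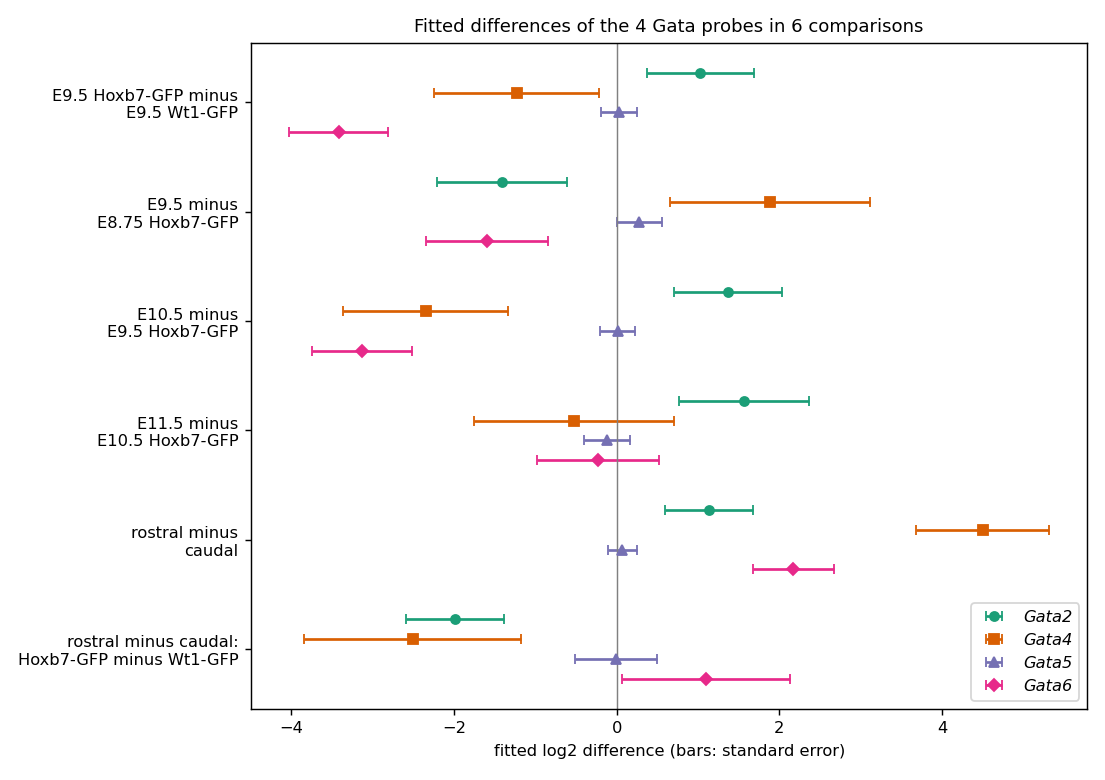
Fitted log2 differences of the 4 Gata probes in 6 comparisons, with bars for the standard error; positive values are higher in the group named first. Gata6 lies farthest to the left for the E9.5 reporters (-3.42) and for E10.5 minus E9.5 (-3.13), Gata4 farthest to the right for rostral minus caudal (4.5), and the Gata5 probe stays within 0.28 of 0.

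The rostral and caudal arrays of the 3 divided groups, set side by side, differed most for Gata4. In the E9.5 duct its signal was 589.6 rostrally and 23.9 caudally, a 29.8-fold difference, and in Wt1-GFP cells 2088 rostrally and 29.4 caudally, 72.4-fold. In the E10.5 duct the signals were 52.9 rostrally and 9.59 caudally, and the second was not well above background, so the rostral array was at least 3.02-fold higher. That bound sets the rostral level against the dimmest signal well above background on the caudal array. Over the 3 pairs the fitted difference was 4.5 (SE 0.82, adjusted p = 0.77), and it lay between 3.67 and 5.54 when any 1 array was left out. All 3 rostral arrays lay above all 3 caudal ones, as they did for 5.14% of the 45585 probes.

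Gata6 was higher rostrally in both E9.5 pairs and Gata2 in each of the 3 pairs, with smaller fitted differences. For Gata6 the log2 difference was 3.43 in the E9.5 duct and 1.44 in Wt1-GFP cells. In the E10.5 duct only the rostral array (signal 16.3) was well above background, against 5.17 caudally, and the bound gives no fold. The fitted difference was 2.17 (SE 0.50, adjusted p = 0.77), while the rostral and caudal sets overlapped, since caudal Wt1-GFP cells lay above both rostral duct arrays. For Gata2 the difference was 0.80 in the E9.5 duct, 0.14 in the E10.5 duct and 2.46 in Wt1-GFP cells (fitted 1.13, SE 0.54, adjusted p = 0.77), with overlapping sets. The Gata5 probe gave -0.01, 0.14 and 0.07 (fitted 0.07, SE 0.18, adjusted p = 0.94). Of 45585 probes, 0 passed (0%), with 2892 at an unadjusted p under 0.05 (6.34%), among them Gata4 and Gata6. The trend fit also called 0.

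**Figure D4:**
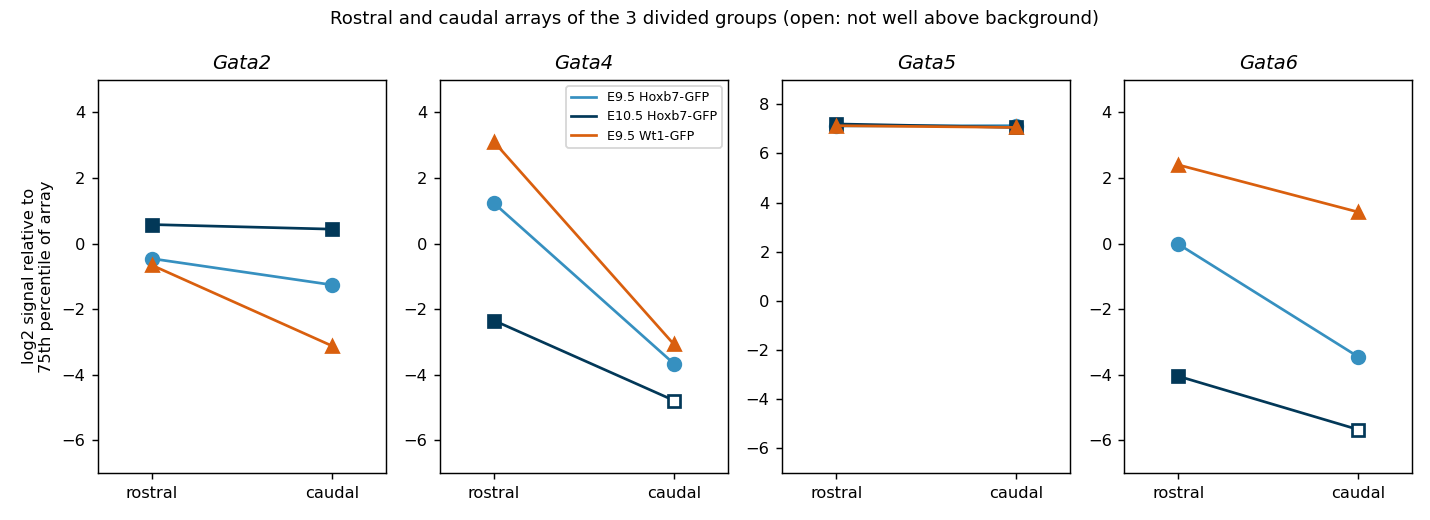
Log2 levels of each Gata probe on the rostral (left) and caudal (right) array of the E9.5 Hoxb7-GFP, E10.5 Hoxb7-GFP and E9.5 Wt1-GFP groups, joined by a line per group, with open symbols for probes not well above background. The Gata4 levels are 4.90 (E9.5 duct) and 6.18 (Wt1-GFP) higher rostrally, those of Gata6 3.43 and 1.44, and those of Gata2 0.80 and 2.46 in the same order. The open caudal E10.5 symbols of Gata4 and Gata6 give no exact difference, and the Gata5 lines are flat.

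Whether position acted differently in the 2 reporters was tested as an interaction, which left 1 residual degree of freedom. The Hoxb7-GFP side joined the E9.5 and E10.5 pairs, whereas the Wt1-GFP pair was of E9.5 only. Reporter and stage are therefore mixed in this value. The rostral minus caudal difference in Hoxb7-GFP cells minus that in Wt1-GFP cells was -1.99 for Gata2 (SE 0.60, adjusted p = 0.81), -2.51 for Gata4 (SE 1.33, adjusted p = 0.93), 1.10 for Gata6 (SE 1.03, adjusted p = 1) and -0.01 for the Gata5 probe (SE 0.50, adjusted p = 1). No probe of 45585 passed (0%), and 2784 had an unadjusted p under 0.05 (6.11%), Gata2 among them. With the intensity trend 1 probe passed (0.00219%), none of the 4. The sign for Gata6 turned under normexp background correction (-0.41). The values of Gata4 and Gata6 use caudal E10.5 signals that were not well above background, so they are not exact differences. With values floored at the dimmest signal well above background they were -2.93 for Gata4 and 0.23 for Gata6.

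Heart muscle markers had their highest mean on the 2 arrays where Gata4 was bright, though not every gene did. The mean level of 9 heart muscle markers was 0.18 on the rostral E9.5 duct array and -0.21 on the rostral Wt1-GFP array, against -3.08 to -2.61 on the other 6. All 9 were well above background on those 2 arrays, and on the others between 6 and 8 were, with Myl7 missing from the caudal E9.5 duct, caudal E10.5, E11.5 and caudal Wt1-GFP arrays. Myl7, the atrial myosin light chain, had levels of -0.59 and -4.66 in the rostral and caudal E9.5 duct and 0.64 and -5.16 in rostral and caudal Wt1-GFP cells. The related light chain Myl4 had 3.72 and -3.39 in the rostral and caudal E9.5 duct, and 2.83 and -2.35 in rostral and caudal Wt1-GFP cells. At E10.5, where the Gata4 difference has only a lower bound, rostral and caudal means of the list were -2.82 and -3.08. Other genes of the list went another way. Actc1, a cardiac actin, was at 0.61 rostrally and 1.17 caudally in Wt1-GFP cells, Nppa was brightest on the caudal E10.5 array (-2.69), and Myh7 on the rostral Wt1-GFP array (-2.55) lay below every duct array. Nkx2-5, a heart factor that works with Gata4, was not well above background on any of 8 arrays. Another partner, Tbx5, was at -0.36 on the rostral E9.5 duct array, 0.14 on the rostral Wt1-GFP array and -3.63 on the bud array, and was not well above background on the other 5. Tbx5, Myl4, Actc1, Nppa and Myh7 were chosen after their values were seen. Over the whole list, 9 of 9 rostral minus caudal differences were positive (median 1.43, against 0.01 over all genes). Other lists also had positive differences, namely 8 of 8 tested spinal cord and neuron markers (median 0.78), 9 of 9 tested erythroid markers (median 0.78) and 5 of 6 tested coelomic markers (median 1.09). The neuron list had a mean of 0.05 rostrally and -2.23 caudally in the E9.5 duct, and -2.34 and -2.99 in Wt1-GFP cells. The part of any of these cell types in the Gata4 signal was not tested.

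**Figure D5:**
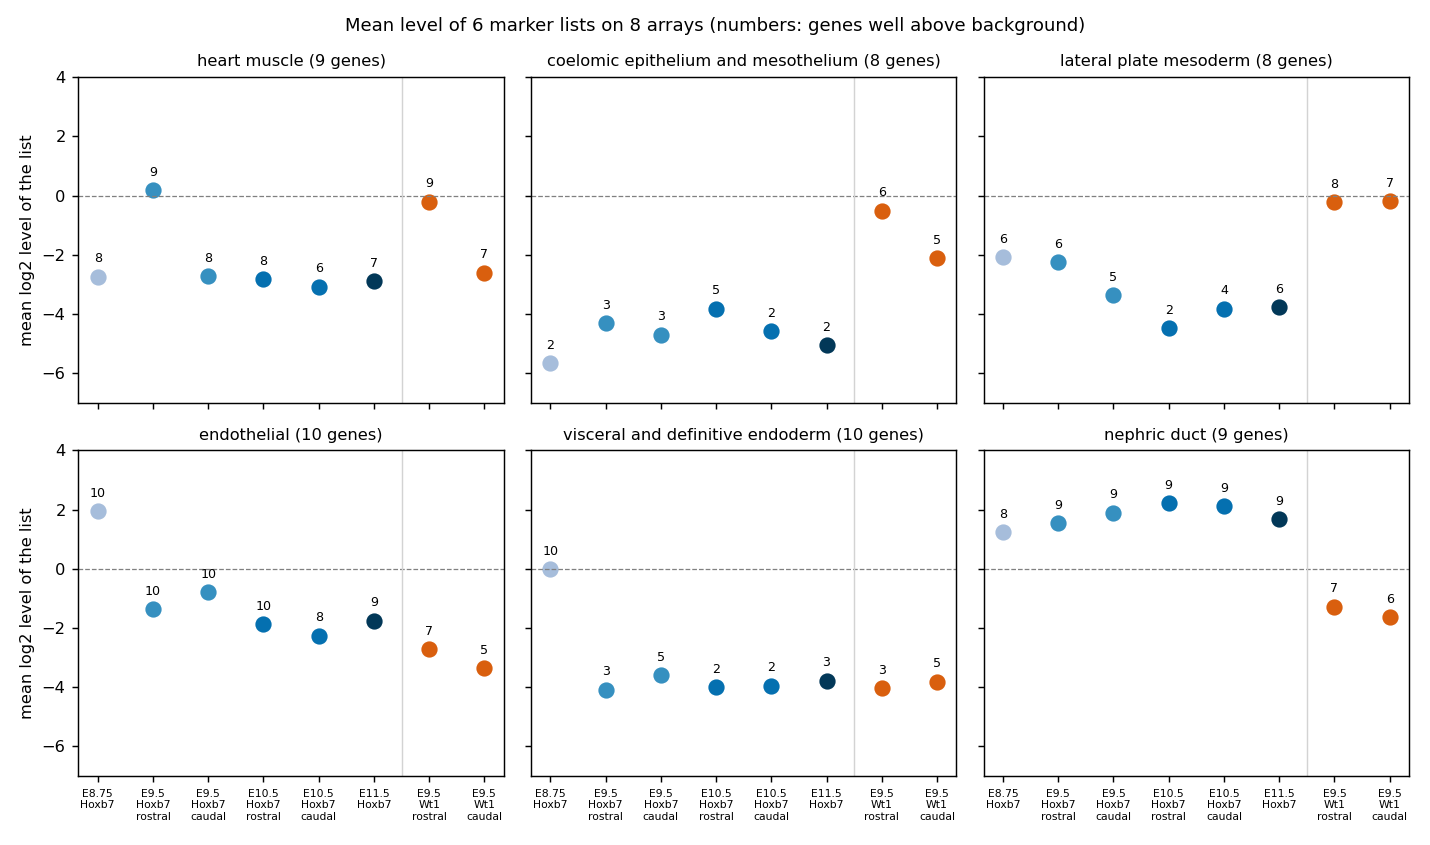
Mean log2 level of 6 marker lists on the 8 arrays, with Hoxb7-GFP arrays by stage in blue, Wt1-GFP arrays in orange, and the number of genes well above background beside each point. Heart muscle markers are high on the rostral E9.5 duct (0.18) and rostral Wt1-GFP (-0.21) arrays, and endothelial (1.94) and endoderm (-0.01) markers on the E8.75 array.

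Genes whose levels followed a member most closely over the 8 arrays differed by member. Candidates were 6945 genes with a RefSeq symbol, well above background on at least 1 array and spanning at least 2 on the log2 scale. Likeness was Pearson's r over the 8 arrays, given as a description. Levels that were not well above background were kept in r. Nearest to Gata4 were Myl7 (r = 0.986), the guanylate cyclase subunit gene Gucy1a1 (0.970), Ankrd53 (0.949), Ttc29 (0.948) and the matrix protein gene Tnc (0.937). Gucy1a1, Ankrd53 and Tnc lay under the dimmest signal well above background on most arrays. Myl7 was not well above background on the bud array or any caudal array. The r values of these genes therefore rest in part on signals at background. Nearest to Gata6 were the growth factor gene Tgfb2 (0.974), Hoxa2 (0.974), the mesenchymal cadherin gene Cdh11 (0.973), the transcription factor gene Zeb2 (0.972) and Pdgfra (0.971), a receptor of mesenchyme. Pdgfra was at 2.65 in rostral Wt1-GFP cells. In the bud it was at -6.35, under the dimmest signal well above background on that array (-4.80). Gata6 itself was not well above background on the bud or caudal E10.5 array, and Tgfb2 lay under the dimmest such signal on both. Nearest to Gata2 were the connexin gene Gja5 (0.970), Cdc42ep2 (0.952), Dffb (0.941), Zfp418 (0.940) and B3gnt2 (0.939), and Gja5 was likewise highest in the bud (2.71). Dffb on both Wt1-GFP arrays and B3gnt2 on the caudal one lay under the dimmest signal well above background. The same limit on r therefore holds in the Gata6 and Gata2 lists. For the flat Gata5 probe the list was Fam214a (0.959), Gzf1 (0.951), Selenbp1 (0.943), Lpar2 (0.943) and Lamb2 (0.942). These follow differences of at most 0.36 in that probe, in which E8.75 is lowest.

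Setting E9.5 against E8.75, Hoxb7-GFP cells had a difference of -1.59 for Gata6 (SE 0.75, adjusted p = 0.42), -1.41 for Gata2 (SE 0.80, adjusted p = 0.48), 1.88 for Gata4 (SE 1.23, adjusted p = 0.54) and 0.28 for the Gata5 probe (SE 0.28, adjusted p = 0.68). None passed, as 0 of 45585 probes did (0%), with 6616 at an unadjusted p under 0.05 (14.5%) and 23 called with the trend (0.0505%), none of the 4. The E9.5 mean joins unlike arrays, since Gata6 was as high rostrally as at E8.75 and low caudally, and Gata4 was high only rostrally. Marker lists of other cell types also differed in mean level between the 2 stages, with 1 array at E8.75. Endothelial markers had mean levels of -1.37 and -0.78 in the rostral and caudal E9.5 duct, against 1.94 at E8.75, where a Flk1 gate is not stated. Endoderm markers had means of -4.09 and -3.60 with 3 and 5 of 10 genes well above background, against -0.01 with 10 of 10 at E8.75. Of that list 9 genes were lower at E9.5. The other, Cldn6, was higher, at 6.95 and 7.91 against 4.70. The part of either cell type in the E8.75 values of Gata6 and Gata2 was not tested.

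Between E9.5 and E10.5 Gata6 had a difference of -3.13 (SE 0.61, adjusted p = 0.60), with both E10.5 arrays below both E9.5 arrays, as for 16.5% of all probes. Since its caudal E10.5 signal was not well above background, this is no exact difference. It was -2.26 with values floored at the dimmest signal well above background and -1.11 under normexp correction. Gata4, with the same limit on the caudal E10.5 array, had -2.35 (SE 1.01, adjusted p = 0.72), and its arrays of the 2 stages overlapped. Gata2 had 1.37 (SE 0.66, adjusted p = 0.75), with both E10.5 arrays above both E9.5 arrays, as for 18.3% of all probes, and its value ran from 0.62 to 2.12 as single arrays were left out. The Gata5 probe had 0.01 (SE 0.22, adjusted p = 0.99). Here 0 of 45585 probes passed (0%), 3339 had an unadjusted p under 0.05 (7.32%), Gata6 among them, and the trend fit called 0. Heart muscle markers had mean levels of -2.82 and -3.08 in the rostral and caudal E10.5 duct, against 0.18 and -2.72 in the rostral and caudal E9.5 duct. Lateral plate markers had means of -4.48 and -3.83, against -2.25 and -3.37, and their part in the Gata4 and Gata6 values was not tested.

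In the E11.5 bud Gata2 had a signal of 1333, against 402.4 and 359.1 in the rostral and caudal E10.5 duct, with a fitted difference of 1.56 (SE 0.80, adjusted p = 0.51) that did not pass. It was 0.82 without the rostral E10.5 array and with the slide row as a block, and 2.31 without the caudal E10.5 array. For Gata4 the difference was -0.52 (SE 1.23, adjusted p = 0.89) and for the Gata5 probe -0.12 (SE 0.28, adjusted p = 0.89). Gata6, well above background only on the rostral E10.5 array of these 3, had -0.23 (SE 0.75, adjusted p = 0.93). Of 45585 probes, 0 passed (0%), 5536 had an unadjusted p under 0.05 (12.1%), none of the 4 among them, and the trend fit called 0. Leaving out the caudal E10.5 array turned the signs for Gata4 (1.03) and Gata6 (0.17). Endothelial markers had a mean of -1.75 in the bud, against -1.87 and -2.26 in the E10.5 duct. Erythroid markers had a mean of -2.04 in the bud, against -2.22 and -3.76.

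Other members of the family served as context. Gata3 had levels of 2.85 at E8.75, 1.69 and 3.00 in the rostral and caudal E9.5 duct, 2.97 and 3.04 in the E10.5 duct and 3.00 in the bud, against -1.0 and 0.08 in Wt1-GFP cells. It was at nearly the same level in the bud and the E10.5 duct. Gata1, the factor of red cell precursors, was well above background on 4 of 8 arrays, at -2.78 on the brightest. Zfpm1 and Zfpm2 (FOG proteins), cofactors that bind GATA zinc fingers, differed in detection. Both probes of Zfpm1 were well above background on all 8 arrays, the brighter between -0.59 and 0.52 and the other between -1.07 and 0.25. In contrast, neither of 2 probes of Zfpm2, the cofactor of Gata4 in heart and gonad, was well above background on any array. Trps1, a repressor with a GATA-type finger, lay between 2.50 and 3.26 by the brightest of its 3 probes. Its other probes lay between 0.07 and 1.19 and between 1.06 and 1.99.

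Lists of partners and targets were described by counts and medians, each gene by its brightest probe, and 0 of their genes passed in any comparison. Of 8 tested heart partners, 8 had negative differences between E9.5 Hoxb7-GFP and Wt1-GFP cells (median -0.78, against -0.05 over all genes). The right-ventricle and limb factor Hand2 was at -4.05 rostrally and, not well above background, -5.88 caudally in the E9.5 duct, compared with -1.80 and -2.48 for Wt1-GFP, and its relative Hand1 had a difference of -1.88, with the rostral E9.5 duct array not well above background. Srf, which binds muscle gene promoters, had -0.96, and Tbx20 -0.78. Of 11 coelomic and gonadal ridge partners, 9 had negative differences (median -2.96). Among them the mesothelial factor Bnc1 was not well above background on either E9.5 duct array (-5.39 and -6.79), and was at -0.31 and -1.44 for Wt1-GFP. Osr1, a factor of intermediate mesoderm, had a difference of -3.89 and Wt1, the gene of the reporter, -5.11. Emx2, which the duct shares, had 3.53. Among 8 endoderm partners 7 had positive differences (median 1.76). Foxa3, not well above background in Wt1-GFP cells, had 3.66. Sox7 had 2.96 and Foxa2 1.96, and neither was well above background on the caudal Wt1-GFP array, so these 3 values are not exact differences.

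Of 8 tested blood and endothelial partners of Gata2, 6 had negative differences for E9.5 minus E8.75 (median -2.52, against -0.02 over all genes), and so had 7 of 8 known Gata2 targets (median -2.51). The target list shares Tal1 and Lyl1 with the partners and holds the endothelial genes Cdh5 and Kdr, which encodes the receptor (Flk1) gated against from E9.5 on. Endothelial markers had negative differences for 10 of 10 genes in the same comparison (median -2.73), and their part was not tested. Tal1, which works with Gata2 in blood precursors, was at -2.21 and -2.68 on the E9.5 duct arrays, compared with 0.29 at E8.75, and Lyl1, its relative, at -4.12 and -3.63, compared with 0.30. In the bud, where Gata2 was highest, Tal1 was at -2.22, below E8.75, and Lyl1 was not well above background. Runx1 was well above background on the bud array alone (1.01). Between the reporters at E9.5, the ETS factor Etv2 had a difference of -3.11 and Fli1 1.28. Erg and Runx1, also among the largest (-0.85 and 0.72), were not well above background on the rostral E9.5 duct or either Wt1-GFP array, so these differences are not read as changes. Among the targets, the endothelial cadherin Cdh5 had 4.48, with neither Wt1-GFP array well above background. The receptor gene Kit had 2.37, and Tal1 and Lyl1 had 0.30 each. Edn1 had -1.30, which is no exact difference. It was not well above background in the E9.5 duct or on the caudal Wt1-GFP array.

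Known targets of Gata4 and Gata6 had no common direction between the reporters. Of 11 tested, 6 had positive and 5 negative differences (median 0.04, against -0.05 over all genes). The endocytic adaptor Dab2 had -2.41, the growth factor Bmp4 -1.81, the myosin gene Myh6 1.87 and the natriuretic peptide gene Nppb 1.14. For rostral minus caudal, 9 of the 11 had positive differences (median 0.46, against 0.01 over all genes). Myl7, not well above background on any caudal array, is among them, and its difference is not exact. The steroidogenic gene Cyp11a1, a gonadal target, was not well above background on any array.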

How the data were processed

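RNA of 8 sorted samples was measured on 8 one-colour arrays of 1 slide with 1 scan time. Cy3 target was amplified from 10 ng of total RNA, per the labels. The intensity used is the signal that Agilent's Feature Extraction software (10.7.3.1) gave after processing, background-subtracted and detrended within the array per the file headers. The deposited matrix holds log2 values on a scale not given in the sources used here; they followed the levels below, centred on each probe's median, at r = 0.9998.

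Outlier spots were left out, repeated spots averaged, and 18 probes lacking a spot dropped, which left 55663. Levels are log2 signals minus the array's 75th percentile (243.3 to 317 as a signal). The 45585 probes well above background on at least 1 array went into a linear fit (limma 3.58.1, R 4.3.3) with 5 group terms and a position term (0.5 rostral, -0.5 caudal, 0 undivided), which left 2 residual degrees of freedom. A lone array was taken to vary as divided groups do. A probe passed at Benjamini-Hochberg adjusted p 0.05 over all probes. Fits were tested on simulated data. The number of arrays limits precision. Members and lists were chosen with earlier results of these data known. All probes of the members and, of the other lists, up to 4 genes with the largest reporter difference are named, plus the 5 genes nearest to each member. A gene that the rule would name among the endoderm partners is not reported here. Alternatives were normexp correction, quantile normalization, other filters, floored values, the brightest probe per gene, an intensity trend, no position term, a slide row block, the deposited matrix, and leaving out each array.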

Additional observations from a re-analysis of the deposited data

How the results depend on the processing

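None of the 24 differences of the 4 probes crossed the threshold under any alternative, and over all alternatives 377 values kept their direction while 11 did not. The sign of Gata4 between E9.5 Hoxb7-GFP and Wt1-GFP cells turned with the slide row as a block (1.87) and without the rostral Wt1-GFP array (0.02; range over arrays left out -2.49 to 0.02). For the Gata5 probe it turned with the slide row as a block (-0.08; range -0.03 to 0.08). Its E10.5 minus E9.5 sign turned under normexp correction (-0.01) and quantile normalization (-0.06; range -0.04 to 0.07). E11.5 minus E10.5 turned without the caudal E10.5 array for Gata4 (range -2.07 to 1.03) and Gata6 (-0.63 to 0.17), and the interaction of Gata6 turned under normexp (-0.41). The counts of probes called, 0 in each comparison, became 285 (normexp; 163 higher, 122 lower), 788 (trend; 384 higher, 404 lower) and 3 (no position term) between the reporters. For E9.5 minus E8.75 they became 195 (normexp; 66 higher, 129 lower) and 23 (trend), and for the interaction 2 (normexp) and 1 (trend). They stayed at 0 when any array was left out (0 to 0). The cause was not tested. No analysis paired by animal was possible, because the labels give no replicate numbers. With its group and position terms, the fit compares rostral and caudal arrays within each divided group. Leaving out a divided array gave no interaction, and leaving out the only array of a stage no step from it. The interaction was not fitted with the slide row as a block. Elsewhere the row term of that block came from the E10.5 pair alone, so its values are not read as free of a slide row effect.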
